A study of Mus musculus with 48 samples.

Results

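The tissue kallikrein-related peptidases are secreted serine proteases, and 8 of them that are typical of stratified squamous epithelium (Klk5, Klk6, Klk7, Klk8, Klk10, Klk11, Klk13 and Klk14) were followed through every group of the study. Each gene was read from its brightest probe set carrying a single symbol. Each had only 1 such probe set on the array, so no choice had to be made. They are 8 of the 22180 gene symbols on the array and 8 of the 15242 that passed the filter on low signals, which asked for a signal above the array's own median in at least 3 arrays. Klk8, Klk10, Klk11 and Klk13 were above the array median in all 48 arrays, Klk7 and Klk14 in 47, Klk6 in 44 and Klk5 in 38.

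Kallikreins are made as inactive precursors by suprabasal keratinocytes, released at the surface of the epithelium and switched on by proteolysis, partly by each other. KLK5 and KLK14 cleave after basic residues and activate other family members, whereas KLK7 cleaves in the manner of chymotrypsin. Together they cut the proteins that hold the outermost squamous cells to each other, and the inhibitor LEKTI, the product of Spink5, restrains them. Their genes lie side by side in 1 cluster, which on mouse chromosome 7 runs in the order Klk14, Klk13, Klk12, Klk11, Klk10, Klk9, Klk8, Klk7, Klk6 and Klk5.

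All 8 genes matched the RefSeq promoter table (assembly GRCm38.p6), Klk6 and Klk11 with 2 starts each. The 250 bases before the annotated start, all on the plus strand, are shown for the genes at either end of the cluster, which moved in opposite directions between pL2 and WT, and for their neighbours Klk13 and Klk7. Klk8 is added for its TATA-like hexamer TTAAAA (capitals).
Klk14 promoter, chr7:43690168-43690417: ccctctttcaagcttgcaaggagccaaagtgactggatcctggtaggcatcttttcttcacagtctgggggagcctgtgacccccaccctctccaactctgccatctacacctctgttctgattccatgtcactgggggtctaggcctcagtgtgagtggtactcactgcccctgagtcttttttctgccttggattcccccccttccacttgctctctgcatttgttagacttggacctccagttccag
Klk13 promoter, chr7:43712317-43712566: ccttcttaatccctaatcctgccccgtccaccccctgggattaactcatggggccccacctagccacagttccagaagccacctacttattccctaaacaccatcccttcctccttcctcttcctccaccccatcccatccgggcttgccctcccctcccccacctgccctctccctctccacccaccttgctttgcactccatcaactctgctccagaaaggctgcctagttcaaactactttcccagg
Klk8 promoter, chr7:43797327-43797576: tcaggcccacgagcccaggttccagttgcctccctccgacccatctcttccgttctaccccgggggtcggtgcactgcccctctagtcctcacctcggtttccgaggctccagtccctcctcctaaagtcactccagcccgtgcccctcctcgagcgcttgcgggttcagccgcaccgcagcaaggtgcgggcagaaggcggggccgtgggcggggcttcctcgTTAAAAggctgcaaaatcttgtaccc
Klk7 promoter, chr7:43811044-43811293: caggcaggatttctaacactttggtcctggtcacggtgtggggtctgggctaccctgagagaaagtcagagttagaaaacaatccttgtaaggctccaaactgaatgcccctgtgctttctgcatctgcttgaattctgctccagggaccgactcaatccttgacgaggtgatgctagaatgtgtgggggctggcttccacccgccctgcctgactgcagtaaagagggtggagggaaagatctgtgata
Klk5 promoter, chr7:43842019-43842268: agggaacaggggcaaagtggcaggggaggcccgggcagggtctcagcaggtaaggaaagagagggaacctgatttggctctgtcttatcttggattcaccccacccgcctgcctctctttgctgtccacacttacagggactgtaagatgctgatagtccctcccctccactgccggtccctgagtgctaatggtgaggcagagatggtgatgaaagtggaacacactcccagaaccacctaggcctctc
In windows of 300 bases (250 before the start, 50 after), 4 motifs were searched on both strands. They were TGANTCA, the site of AP-1, AACNNGTT, a core of grainyhead-like sites, GGGTGTG, bound by Klf factors, and TATAAA, the TATA box. None of the 10 member windows held any of them. Among all 32851 windows, the shares were 7.81%, 4.2%, 7.95% and 13.6%. On the gene's own strand, TTAAAA beginning 20 to 40 bases before the start was found in 1 member window, that of Klk8, 26 bases before the start, and in 1.04% of all windows. That last motif and its distance limits were chosen after the sequences had been seen. Outside those limits, TTAAAA also occurs before a start of Klk6, Klk10 and Klk11.

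The samples were whole tissue from the squamocolumnar junction and cardia of mice, with 1 Affymetrix array each, in 16 groups of 3. In the pL2 mouse (written pl2 in some labels), human interleukin-1 beta is expressed under a promoter active in squamous epithelium of the oesophagus and forestomach, which gives chronic inflammation and a Barrett-like lesion at the junction. Whether the 3 arrays of a group came from separate mice is not stated, so p-values measure the spread between arrays. At 12 months of age there were WT and pL2 mice from the facility called MRI on chow, WT and pL2 mice from the facility called Freising on chow or on a high-fat diet (HFD), the line labelled FXR, after the bile acid receptor, and its cross pL2_FXR, both from MRI on chow. The direction of the FXR change is not given in the labels. The line pL2_IL8, which also carries interleukin-8, was sampled at 9 and 12 months, at MRI on chow. In 6 further pL2 lines from MRI on chow, tamoxifen at 3 to 6 months of age acted on Notch1 (fl_fl), Notch2 (fl_fl) or an active Notch2 (Notch2IC_LacZ) in cells marked by Lgr5 or by Dclk, and tissue was taken at 9 to 13 months. No tamoxifen-treated pL2 control without a Notch change was analysed here. The 9 WT arrays and the 3 FXR arrays carry no pL2, and the other 36 do. Array titles contain the letters CM for pL2_IL8, NS for Freising and TH for the Notch lines. For WT, pL2, FXR and pL2_FXR at MRI they contain AN. What the letters stand for is not stated, and comparisons between these sets cannot be told apart from this difference in titles.

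Values are log2 signals on the scale of the deposited file, and array medians ran from 4.03 to 4.27. Suprabasal squamous markers (27 genes, such as Krt13 and Krt4) had mean log2 signals of 8.84 to 9.91 in the 9 WT arrays and of 6.97 to 7.75 in the 3 FXR arrays, well above the array medians in both. In 10 arrays a hepatocyte or an intestinal marker list had a mean above 8, among them WT at MRI replicate 1 (hepatocyte mean 9.33) and pL2 at MRI replicate 3 (8.34). Skeletal muscle markers were highest in WT at MRI (5.58 to 6.07, against 3.57 to 4.79 in pL2 at MRI). Sex is not stated in the labels. Xist, transcribed in females, had log2 signals of 10.56 to 10.90 in WT at MRI and 3.90 to 4.27 in WT at Freising on chow, so that sex and facility cannot be told apart in WT. It was 12.17, 4.92 and 3.83 in pL2 at MRI, 4.58 to 5.59 in pL2 at Freising on chow, and at least 10.66 in all FXR and pL2_FXR arrays. With a sex-linked score (Xist minus the mean of Y-linked genes) as a covariate, the number of members called changed in 1 of 24 comparisons, pL2 against WT at MRI, from 4 to 3 (Klk10 1.09, limma adjusted p = 0.0741). In most of the 24 comparisons 0 members were called without the covariate, so no call could be lost there. In bulk tissue, fewer cells of a type and less RNA per cell cannot be told apart.

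**Figure D1:**
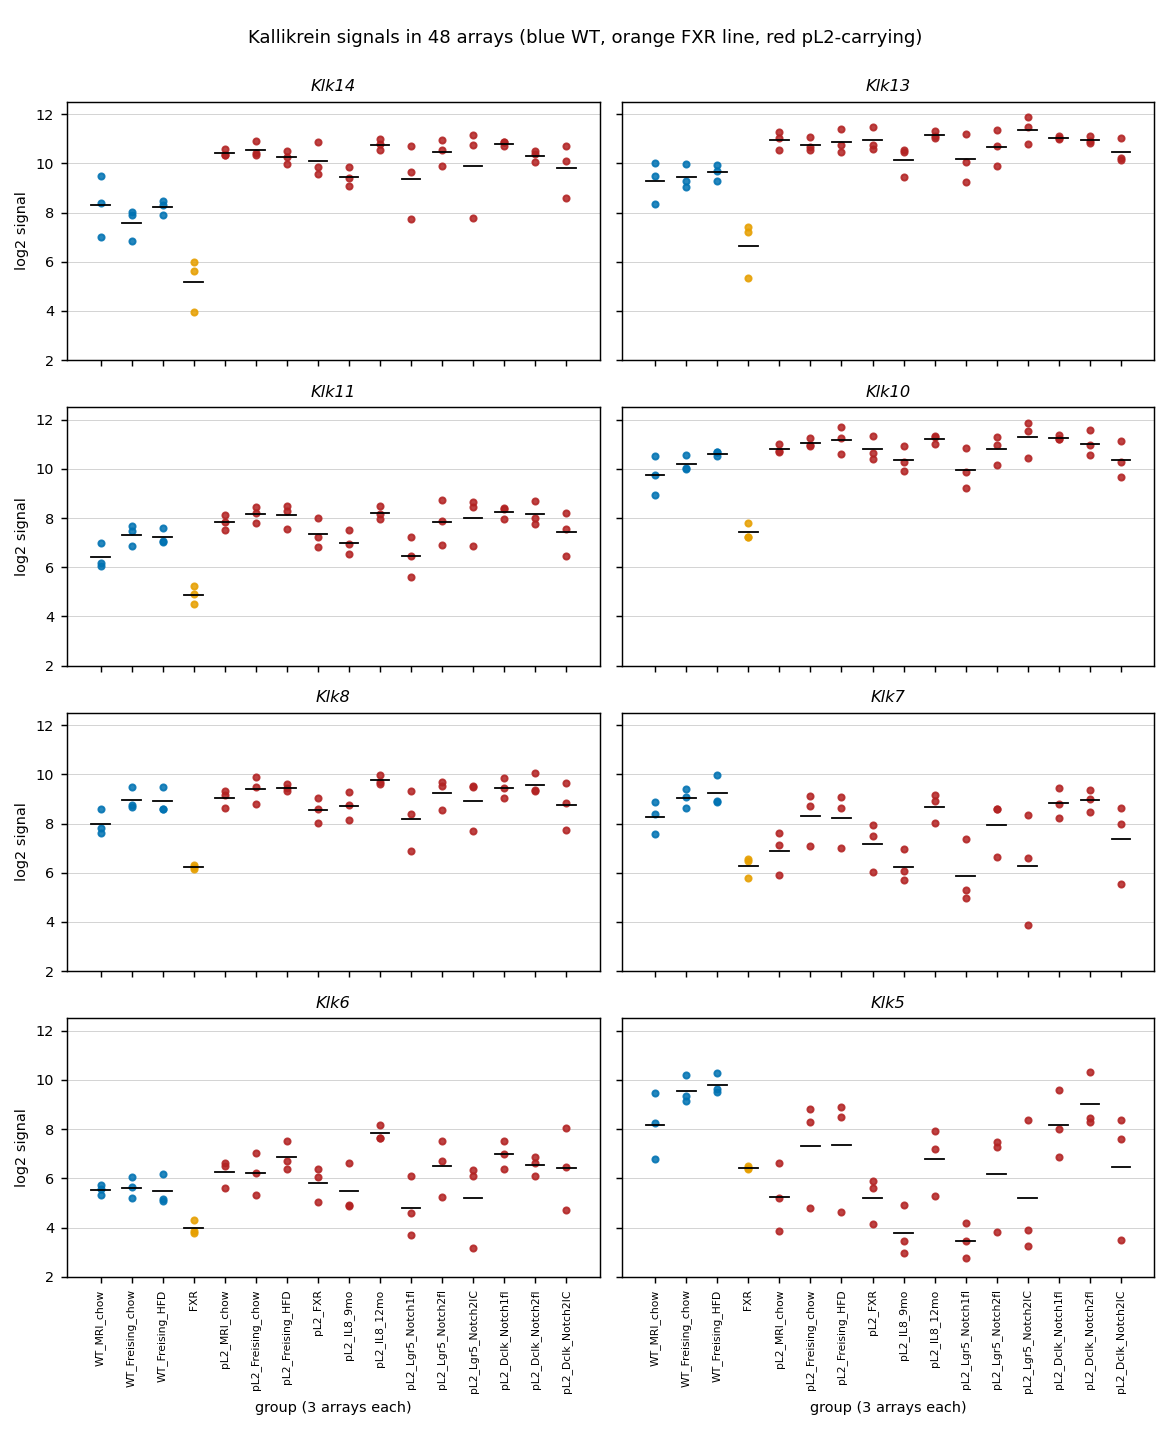
Log2 signal (y axis) of each kallikrein gene in the 16 groups (x axis), with 1 point per array and a bar at the mean of 3 arrays. The FXR arrays lie lowest for Klk14, Klk13, Klk11, Klk10 and Klk8, and Klk5 spreads from 2.77 to 10.30 among pL2-carrying arrays.

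The first comparison asked how the inflamed pL2 junction differed from WT on chow, averaged over the facilities (limma, Benjamini-Hochberg adjusted over 15242 genes). Klk14, Klk13, Klk11 and Klk10 rose and Klk5 fell, while Klk6, Klk7 and Klk8 did not pass the test. Called higher were 4 of 8 members, against 9.05% of all genes tested, and called lower was 1 of 8, against 12.9%. The 6 pL2 arrays lay above the 6 WT arrays without overlap for 3 of 8 members, against 2.62% of all genes. The median log2 difference of the 8 genes was 0.85, and that of all genes tested was -0.01. Many comparisons below share the WT or the pL2 arrays at MRI, so they are not independent of each other.

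Klk14, a trypsin-like activator of the cascade, moved most among the genes that rose. Its log2 signals were 7.0, 9.50 and 8.37 in WT at MRI and 6.85, 7.88 and 8.02 in WT at Freising. They were 10.35, 10.60 and 10.33 in pL2 at MRI and 10.34, 10.43 and 10.92 in pL2 at Freising. All 6 pL2 arrays thus lay above all 6 WT arrays, and the difference was 2.56 ± 0.47 (log2, SE; 5.88-fold, limma adjusted p = 0.00023). Among all pL2-carrying arrays, 31 of 36 exceeded the highest WT array of either diet.

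Klk13, another trypsin-like member, gave 8.35, 10.00 and 9.48 in WT at MRI and 9.04, 9.30 and 9.99 in WT at Freising. In pL2 it gave 10.55, 11.29 and 11.02 at MRI and 10.67, 10.55 and 11.05 at Freising. The 6 pL2 arrays were again all above the WT arrays, with a difference of 1.50 ± 0.33 (limma adjusted p = 0.00122). Of the 36 pL2-carrying arrays, 33 lay above the highest WT value.

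Klk10 and Klk11, whose targets in squamous tissue are less settled, rose by less. Klk10 gave 8.95, 9.75 and 10.53 in WT at MRI and 10.00, 10.03 and 10.55 in WT at Freising. In pL2 it gave 10.70, 11.02 and 10.72 at MRI and 10.93, 10.98 and 11.25 at Freising, without overlap, a difference of 0.97 ± 0.28 (limma adjusted p = 0.0129). Without WT at MRI replicate 1, the array with the hepatocyte signal, it was 0.77 (adjusted p = 0.0609). Klk11 differed by 1.12 ± 0.32 (adjusted p = 0.0114), and 1 WT array at Freising (7.67) lay within the pL2 range of 7.53 to 8.46.

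Klk5, the trypsin-like protease placed at the head of the activation cascade, went the other way. Its signals were 8.26, 6.77 and 9.48 in WT at MRI against 6.62, 5.20 and 3.85 in pL2, and 9.15, 9.34 and 10.20 in WT at Freising against 8.29, 4.81 and 8.83. Within each facility the groups did not overlap. The difference was -2.60 ± 0.88 (6.07-fold lower, limma adjusted p = 0.0315), with all 6 pL2 arrays below the WT mean of their comparison. The call was lost without WT at MRI replicate 1 (-2.58, adjusted p = 0.057) or 3 (-2.27, 0.0852), pL2 at MRI replicate 2 (-2.59, 0.0564) or 3 (-2.26, 0.0855), pL2 at Freising replicate 2 (-1.98, 0.124) or WT at Freising replicate 3 (-2.44, 0.0665). With the mean of skeletal muscle markers as a covariate it was -1.10 (adjusted p = 0.479), and with the squamous marker mean as a covariate it was -3.72 (adjusted p = 0.00118).

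Klk7, the chymotrypsin-like protease of the cascade, had a difference of -1.06 ± 0.57 (adjusted p = 0.189), with 4 of 6 pL2 arrays below the WT mean. Klk8, also known as neuropsin, differed by 0.73 ± 0.34 (adjusted p = 0.126), with all 6 pL2 arrays above the WT mean. Klk6, or neurosin, differed by 0.64 ± 0.50 (adjusted p = 0.384).

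Within facilities the pattern kept its shape but fewer genes passed. At MRI, Klk14 (2.14 ± 0.66), Klk13 (1.68 ± 0.46), Klk11 (1.41 ± 0.46) and Klk10 (1.07 ± 0.40) rose, 4 of 8 members against 10.3% of all genes called higher, with limma adjusted p from 0.00758 to 0.0497. Klk5 (-2.95 ± 1.25, adjusted p = 0.0844) and Klk8 (1.04 ± 0.48, adjusted p = 0.12) did not overlap between groups without being called. Without overlap, 5 of 8 members were higher and 1 was lower, against 16.8% and 19.7% of all genes. None of the 4 calls at MRI remained without WT at MRI replicate 1 (Klk14 1.49, Klk13 1.22, Klk11 1.23 and Klk10 0.67, adjusted p 0.0893 to 0.31). The call of Klk10 was lost whichever array was left out, except WT replicate 3. The calls numbered 2 without WT at MRI replicate 2, 1 without pL2 replicate 2 and 2 without pL2 replicate 3.

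At Freising on chow, Klk14 (2.98 ± 0.66, 7.88-fold, limma adjusted p = 0.0108) was the 1 member called, where 1.64% of all genes were. It was not called without pL2 at Freising replicate 3 (2.80, adjusted p = 0.0811) or WT at Freising replicate 1 (2.61, 0.0701). Klk13 (1.32 ± 0.46), Klk10 (0.86 ± 0.40), Klk11 (0.83 ± 0.46) and Klk5 (-2.26 ± 1.25) did not overlap between the groups and had adjusted p from 0.137 to 0.369. With Klk14, 4 of 8 members were higher without overlap and 1 was lower, against 12.9% and 13.6% of all genes. Every pL2 array at Freising on chow has a title with an added suffix, of unstated meaning, and no WT array at Freising has it. Genotype and suffix therefore cannot be told apart in this comparison, which also enters the average over the facilities. With the suffix as a covariate, 0 of 8 members were called there. On HFD, limma called 0 of 8 members, where 1.16% of genes were called; 2 members had an unadjusted p below 0.05, as did 14.9% of all genes. There Klk14 differed by 2.01 ± 0.66, Klk13 by 1.24 ± 0.46 and Klk5 by -2.46 ± 1.25.

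No difference between the facilities was called in the size of the pL2 difference. In the interaction test, 0 of 8 members were called by limma, and 0 had an unadjusted p below 0.05, against 1.76% and 18.8% of all genes. The differences of differences ran from -0.62 ± 0.68 for Klk8 to 0.84 ± 0.93 for Klk14. Between WT at Freising and WT at MRI on chow, limma also called 0 of 8 members, and 0 had an unadjusted p below 0.05, where 8.14% of all genes were called. Klk8 was 0.97 ± 0.48 higher at Freising without being called.

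**Figure D2:**
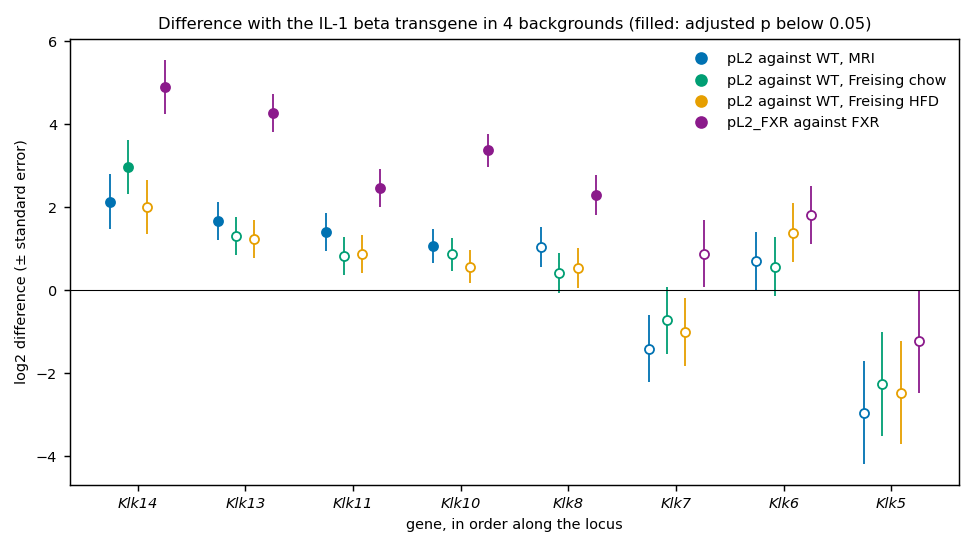
Log2 difference with its standard error (y axis) between pL2-carrying and matching arrays for each gene, in order along the locus (x axis), in 4 backgrounds given by colour. Filled points passed an adjusted p of 0.05. Klk14 runs from 2.01 to 4.90 over the backgrounds and Klk5 from -2.95 to -1.23.

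Genes of inhibitor families, other serine proteases of epithelia and described substrates were read from lists drawn up with earlier results of these data known. Whether the listed proteases act with the kallikreins here was not tested. Of 13 tested genes from families that hold serine protease inhibitors, 3 rose in pL2 on chow (Spink12 1.45 ± 0.48, Wfdc12 1.09 ± 0.37 and Spint1 0.54 ± 0.14) and Serpina12 fell (-1.79 ± 0.63). Spink5, the gene of LEKTI, differed by -0.42 ± 0.37 (limma adjusted p = 0.461). Of 13 other serine proteases of epithelia, 7 rose and 0 fell, led by Tmprss11g (2.29 ± 0.39), Prss22 (2.17 ± 0.45), Tmprss11d (2.02 ± 0.34) and Prss27 (1.58 ± 0.31). The median difference of these proteases was 0.94.

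Of 6 described substrates, Il1b, whose precursor can be cut by several proteases, rose by 2.11 ± 0.46 (limma adjusted p = 0.00121). The probe set is annotated to the mouse gene, not to the human transgene. The junction proteins of the cornified layer showed no call, with 0.10 ± 0.47 for Cdsn (corneodesmosin), 0.24 ± 0.33 for Dsg1a (desmoglein) and -0.08 ± 0.73 for Dsc1 (desmocollin). At MRI alone, the related Dsg1b differed by -0.05 ± 0.61 and Flg (filaggrin) by -1.92 ± 1.14, neither of them called. Flg was lower there without overlap (means 7.42 in pL2 and 9.35 in WT), an arrangement that 19.7% of all genes showed. Among 7 tested kallikreins outside the 8, Klk12, which lies between Klk13 and Klk11, rose (1.19 ± 0.41, adjusted p = 0.0344), and Klk9, between Klk10 and Klk8, differed by 0.50 ± 0.44 (adjusted p = 0.452).

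Marker lists moved in the same comparison. Suprabasal squamous markers rose in 9 of 27 tested and fell in 0 (median 0.29), and neutrophil markers rose in 6 of 10. Markers fell in 11 of 11 for smooth muscle (median -1.94), 8 of 9 for fibroblasts, 9 of 10 for endothelium and 7 of 12 for skeletal muscle. With the squamous marker mean as a covariate, the differences of the genes that rose were 1.80 for Klk14, 1.01 for Klk13, 0.49 for Klk11 and 0.46 for Klk10, all still called (limma adjusted p 0.000381 to 0.0422). With the skeletal muscle marker mean as the covariate instead they were 2.91, 1.68, 1.58 and 1.29, also all called (adjusted p 0.00149 to 0.0094). The part of smooth muscle, fibroblasts, endothelium and neutrophils was not tested. At MRI alone, the suprabasal markers called higher were led by Sprr1b (3.49), Sprr2d (2.54), Krt6a (2.23) and Krt16 (2.01). Krt13 (-0.25), Krt4 (-0.03), Krt1 (-0.83), Krt10 (-0.27) and Lor (-0.77) were not called there. The squamous marker mean averages the suprabasal and basal lists, so it includes both kinds of suprabasal marker.

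The FXR line had the lowest signals of Klk6, Klk8, Klk10, Klk11, Klk13 and Klk14 of the 16 groups. Against WT at MRI, Klk14 (-3.10 ± 0.66, limma adjusted p = 0.00901), Klk13 (-2.62 ± 0.46, 0.00112), Klk10 (-2.32 ± 0.40, 0.000881) and Klk8 (-1.76 ± 0.48, 0.0447) fell. These are 4 of 8 members, against 1.37% of all genes called lower. The values of Klk14 in FXR were 3.94, 5.64 and 5.99, those of Klk13 5.35, 7.20 and 7.41, and those of Klk10 7.24, 7.24 and 7.80. All 3 FXR arrays lay below the lowest WT array for 8 of 8 members, an arrangement that 11.2% of all genes showed.

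Klk7 (-2.01 ± 0.81), Klk5 (-1.73 ± 1.25), Klk6 (-1.55 ± 0.70) and Klk11 (-1.53 ± 0.46) were lower without being called (limma adjusted p 0.0695 to 0.533). The median difference of the 8 genes was -1.89 and that of all genes 0.02. The call of Klk8 was lost whichever of the 6 arrays was left out (-1.96 to -1.47, adjusted p 0.0604 to 0.214). That of Klk14 was lost without WT at MRI replicate 2 (-2.49, adjusted p = 0.0681) or FXR replicate 1 (-2.47, 0.103).

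The wider squamous programme was lower in the same arrays. Suprabasal markers fell in 12 of 27 tested and rose in 0, with a median of -1.67, and basal markers fell in 5 of 10. Skeletal muscle markers fell in 7 of 12. Spink5 (-2.41 ± 0.53), Serpinb5 (-1.43 ± 0.26), Tmprss11g (-2.51 ± 0.55) and Tmprss11d (-2.43 ± 0.48) also fell. With the squamous marker mean as a covariate, 0 of 8 members were called and the differences were -0.30 for Klk14, -0.80 for Klk13, -0.41 for Klk10 and 0.49 for Klk8. With the skeletal muscle mean as a covariate 0 of 8 members were called as well.

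When FXR mice also carried pL2, 5 of the kallikreins were higher than in FXR alone. Klk14 in pL2_FXR was 9.85, 10.87 and 9.56, Klk13 10.74, 11.49 and 10.57, and Klk10 10.40, 11.36 and 10.64. Against FXR, Klk14 rose by 4.90 ± 0.66 (29.9-fold, limma adjusted p = 3.29e-06), Klk13 by 4.28 ± 0.46 (19.4-fold, 7.05e-08), Klk10 by 3.37 ± 0.40 (3.77e-07), Klk11 by 2.47 ± 0.46 (0.000454) and Klk8 by 2.30 ± 0.48 (0.00198). Called higher were 5 of 8 members, against 5.15% of all genes tested, with a median difference of 2.38 against -0.03 for all genes. Without overlap, 6 of 8 members were higher, against 13.9% of all genes. All of these calls held when each array of the 2 groups was left out in turn.

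The estimate for Klk5 was negative, but no larger than its standard error. Klk5 was 4.12, 5.62 and 5.88 in pL2_FXR and 6.44, 6.50 and 6.38 in FXR, a difference of -1.23 ± 1.25 (limma adjusted p = 0.575). Klk7 differed by 0.88 ± 0.81 and Klk6 by 1.83 ± 0.70 (adjusted p = 0.0871). In the same comparison, suprabasal markers rose in 12 of 27, neutrophil markers in 7 of 10, Klk12 by 2.58 ± 0.58 and Klk9 by 2.43 ± 0.62. With the squamous mean as a covariate, Klk13 (2.29) and Klk10 (1.29) stayed called, Klk14 was 1.85 (limma adjusted p = 0.0858), and Klk8 (-0.16) and Klk11 (-0.10) changed sign.

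Between pL2_FXR and pL2 at MRI, limma called 0 of 8 members, where 0.0853% of all genes were called. An unadjusted p below 0.05 was reached by 0 members and by 1115 of the 15242 genes tested. The differences ran from -0.50 ± 0.48 for Klk8 to 0.28 ± 0.81 for Klk7. The FXR difference in pL2 minus that in WT was positive for all 8 genes, from 1.05 ± 0.65 for Klk11 to 2.77 ± 0.93 for Klk14. In that interaction test limma called 0 of 8, where 0.138% of genes were called, and 3 members had an unadjusted p below 0.05, as had 2139 of the 15242 genes tested. Klk10 (2.30 ± 0.57) and Klk13 (2.60 ± 0.65) were nearest the threshold (both adjusted p = 0.0763 to 0.0764). Without WT at MRI replicate 1 the test called 2 members and without pL2 at MRI replicate 1 it called 1.

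No kallikrein was called between high-fat and chow feeding. In pL2 the differences between HFD and chow ran from -0.32 ± 0.66 (Klk14) to 0.66 ± 0.70 (Klk6), and in WT from -0.16 ± 0.70 (Klk6) to 0.65 ± 0.66 (Klk14). Limma called 0 of 8 members in both comparisons, and 0 had an unadjusted p below 0.05, with 0% and 0.164% of all genes called. For Klk5 the difference was 0.04 ± 1.25 in pL2, an error that leaves changes of several fold undetectable. The interaction of diet and pL2 likewise had 0 of 8 members called, where 0.0197% of genes were, and 0 below an unadjusted p of 0.05.

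In pL2_IL8 mice the kallikreins at 12 months stood above those at 9 months. Klk5 was 7.20, 7.91 and 5.30 at 12 months against 3.43, 4.93 and 2.97 at 9 months, Klk7 was 9.15, 8.90 and 8.03 against 6.09, 6.95 and 5.72, and Klk6 was 8.16, 7.66 and 7.66 against 4.93, 6.62 and 4.87. The groups did not overlap for 8 of 8 members, an arrangement that 8.71% of all genes showed in this direction. The log2 differences were 3.03 ± 1.25 for Klk5, 2.44 ± 0.81 for Klk7 and 2.35 ± 0.70 for Klk6, and from 0.84 to 1.32 for the other 5. Limma called 0 members and 0% of all genes, and 7 members had an unadjusted p below 0.05, against 7.77% of genes. The adjusted p of the members ran from 0.33 to 0.656. Suprabasal markers had positive differences in 27 of 27 tested, with a median of 1.02 and 0 calls, and their mean log2 signal was 10.09 to 10.30 at 12 months and 8.54 to 9.65 at 9 months. Neutrophil markers were lower in 10 of 10 (median -0.77) and hepatocyte markers higher in 9 of 9 (median 2.11), also with 0 calls. The part of the neutrophil markers was not tested. Xist, transcribed in females, was 11.35 to 11.55 in the 9-month arrays, and 10.70, 4.30 and 5.76 in the 12-month arrays. With the sex-linked score as a covariate, 0 of 8 members were called as well. Since 0 were called without it, no call could be lost, and this count does not measure the part of sex.

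Against pL2 at MRI, pL2_IL8 at 12 months had Klk7 higher by 1.82 ± 0.81, Klk6 by 1.58 ± 0.70 and Klk8 by 0.72 ± 0.48 without overlap. Limma called 0 of 8 members, with adjusted p from 0.238 to 0.882, where 1.82% of genes were called, and 2 members had an unadjusted p below 0.05, as had 2588 of the 15242 genes tested. The 3 members without overlap compare with 14.1% of all genes. Klk13 (0.20 ± 0.46) and Klk14 (0.34 ± 0.66) differed least. Endothelial markers rose in 8 of 10 in this comparison, and their part in it was not tested. Klk6 in pL2_IL8 at 12 months had the highest mean of all 16 groups (7.83 ± 0.29, SD, n = 3).

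Among the Notch lines, the widest differences were in Klk5. In the Dclk lines it was 6.87, 9.57 and 8.03 with Notch1fl_fl, 10.30, 8.43 and 8.31 with Notch2fl_fl, and 8.36, 7.60 and 3.48 with Notch2IC_LacZ. In the Lgr5 lines it was 3.45, 4.19 and 2.77, then 7.28, 3.83 and 7.46, then 3.90, 3.26 and 8.39. Dclk replicate 3 with Notch2IC_LacZ lay far below the other 8 Dclk arrays, while the Lgr5 arrays spread from 2.77 to 8.39. Averaged over the 3 Notch changes, Klk5 was higher in the Dclk lines by 2.93 ± 0.72 (7.64-fold, limma adjusted p = 0.0433, 8 of 9 arrays above the Lgr5 mean), 1 of 8 members called against 0.945% of all genes. Klk7 differed by 1.69 ± 0.47 (adjusted p = 0.0697) and Klk6 by 1.13 ± 0.40 (0.155). Xist was 3.53, 4.18 and 5.22 in Lgr5 Notch1fl_fl replicate 3, Notch2fl_fl replicate 1 and Notch2IC_LacZ replicate 3. The other Lgr5 arrays had 10.75 to 11.95. Among Dclk arrays it was 8.75 in Notch1fl_fl replicate 3, 6.33 in Notch2IC_LacZ replicate 2 and 10.99 to 11.86 in the rest. With the sex-linked score as a covariate, the number of members called between the drivers stayed at 1.

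Klk13 (0.09 ± 0.27), Klk10 (0.19 ± 0.23) and Klk14 (0.40 ± 0.38) had the smallest differences between the 2 drivers. Suprabasal markers had a median difference of 0.70 and intestinal markers of -1.80, with 0 calls in either list. With the squamous marker mean as a covariate, Klk5 differed by 1.77 (limma adjusted p = 0.149). The cornified envelope gene Flg (filaggrin) was the substrate called in the same direction (2.62 ± 0.66, adjusted p = 0.0456). The Lgr5 mice were 9 to 11 months old and the Dclk mice 10 to 13, and with age as a covariate Klk5 differed by 2.35 (adjusted p = 0.606). When the 10 arrays with hepatocyte or intestinal signal were dropped, of which 4 were Lgr5 and 2 Dclk arrays, it was 2.63 (adjusted p = 0.175). Leaving out single arrays gave differences of 2.54 to 3.47 and kept the call in 8 of 18 cases. The call was lost without Lgr5 Notch1fl_fl replicate 1 (2.93), Lgr5 Notch2fl_fl replicate 2 (2.54), Lgr5 Notch2IC_LacZ replicates 1 (2.72) and 2 (2.61), Dclk Notch1fl_fl replicates 2 (2.70) and 3 (2.96), Dclk Notch2fl_fl replicates 1 (2.72) and 2 (3.03) and Dclk Notch2IC_LacZ replicates 1 (2.62) and 2 (2.75).

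Each Notch line against pL2 at MRI gave 0 of 8 members called by limma, where 0.144%, 0.0525% and 0.138% of all genes were called in the Lgr5 lines with Notch1fl_fl, Notch2fl_fl and Notch2IC_LacZ. In the Dclk lines with the same changes the shares were 0%, 0.256% and 0.0197%. An unadjusted p below 0.05 was reached by 3 members in Lgr5 Notch1fl_fl, 2 in Dclk Notch1fl_fl and 2 in Dclk Notch2fl_fl, against 14.5%, 10.4% and 13.0% of all genes, and by 0 in the other lines. Klk5 was 3.79 ± 1.25 higher in Dclk Notch2fl_fl and 2.93 ± 1.25 higher in Dclk Notch1fl_fl, with limma adjusted p of 0.18 and 0.395. In Lgr5 Notch1fl_fl all 8 differences were negative, from -1.75 ± 1.25 for Klk5 to -0.78 ± 0.46 for Klk13, and suprabasal markers had a median of -0.98 there. Notch2IC_LacZ against Notch2fl_fl gave 0 of 8 members called in the Lgr5 lines (0.0722% of genes) and 0 of 8 in the Dclk lines (0.0328% of genes), with 1 member at an unadjusted p below 0.05 in each, against 7.11% and 5.20% of all genes.

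**Figure D3:**
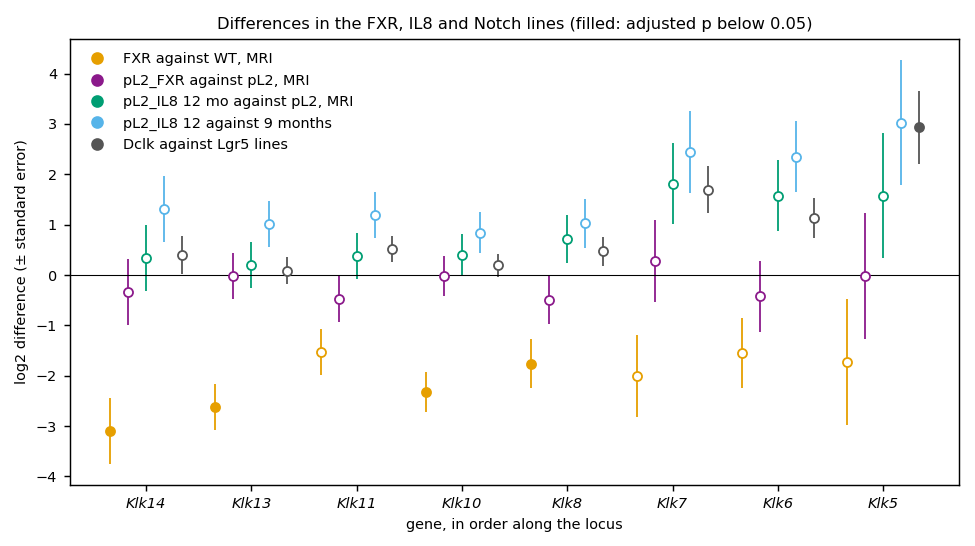
Log2 difference with its standard error (y axis) of each gene, in order along the locus (x axis), for the FXR, IL8 and Notch comparisons given by colour, with filled points for an adjusted p below 0.05. FXR against WT lies below 0 for all 8 genes, and the differences of pL2_IL8 at 12 against 9 months and of the Dclk against the Lgr5 lines are larger for Klk5, Klk6 and Klk7 than for the rest.

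The order of the groups differed between genes. For Klk14 all 12 pL2-carrying groups had higher means (9.36 to 10.80) than the 3 WT groups (7.58 to 8.29), which were followed by FXR (5.19). The gaps between pL2 and WT groups and between WT groups and FXR were larger than the pooled SD within groups of 0.84, and no other gap between neighbours was. Klk13 had the same order of classes, with pL2-carrying groups at 10.14 to 11.37, WT at 9.27 to 9.64 and FXR at 6.65. There only the step to FXR exceeded the pooled SD of 0.59. For Klk8, Klk10 and Klk11 the step from WT at MRI to FXR was likewise the single gap larger than the pooled SD.

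For Klk5 the order was headed by WT at Freising on HFD (9.81 ± 0.42, SD, n = 3) and WT at Freising on chow (9.57 ± 0.56). At the foot were pL2_IL8 at 9 months (3.78 ± 1.02) and Lgr5 Notch1fl_fl (3.47 ± 0.71). No 2 neighbours in that order, nor in those of Klk6 and Klk7, differed by more than the pooled SD (1.60 for Klk5, 0.89 for Klk6 and 1.04 for Klk7). Klk7 was headed by the same 2 WT groups, at 9.25 ± 0.62 and 9.03 ± 0.38. In 19 of 36 pL2-carrying arrays Klk5 was below the lowest WT array, and in 1 it was above the highest.

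The genes also varied together within groups. The correlations given here are descriptions over arrays that share groups and tissue composition. After each group's mean was subtracted, over 48 arrays, Klk5 and Klk7 had r = 0.89, Klk7 and Klk6 0.87, Klk10 and Klk11 0.92, and Klk13 and Klk14 0.83. Between its ends, Klk5 had r = 0.32 with Klk14 and 0.21 with Klk13. Within the 36 pL2-carrying arrays, Klk5 had r = 0.92 with Klk7 and 0.55 with Klk14. On the plot of Klk5 against Klk14, the WT, FXR and pL2-carrying arrays occupied different regions, so that the correlation over all 48 (r = -0.05) mixes differences between and within classes. WT at MRI replicate 2 lay apart from the other WT arrays there, with the highest Klk14 (9.50) and lowest Klk5 (6.77) of the 9, and with the highest Il1b (6.26, against 3.71 to 4.93 in the other 8).

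**Figure D4:**
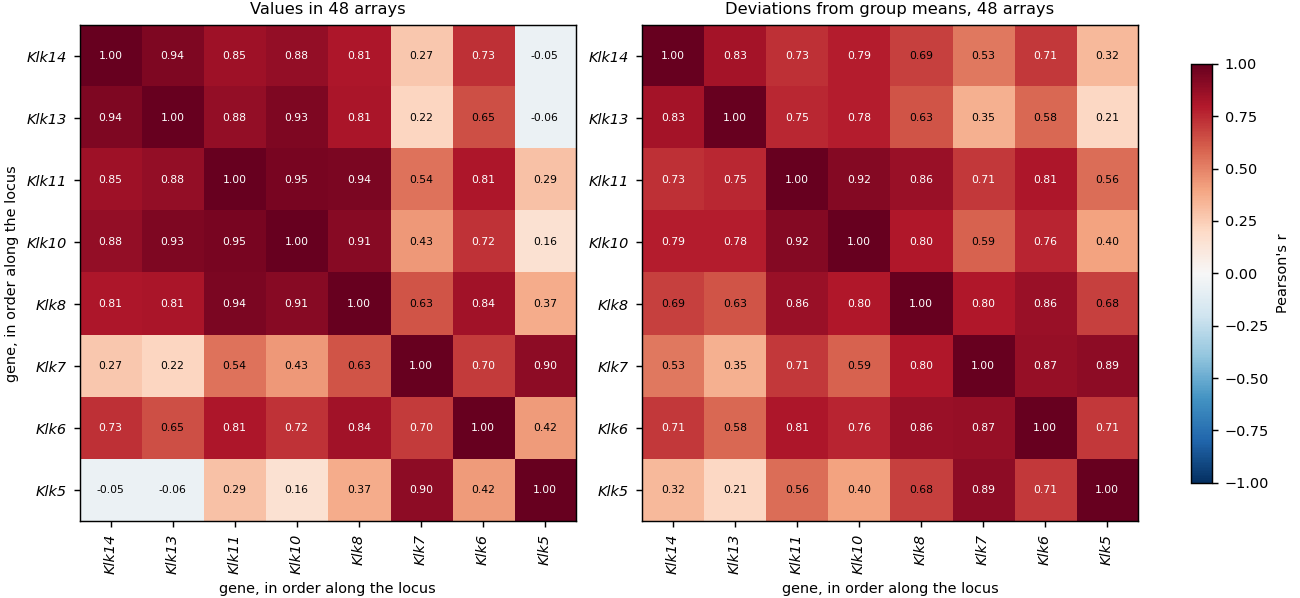
Pearson correlation between the 8 genes, in order along the locus on both axes, over the values of 48 arrays (left) and over deviations from the 16 group means (right). Klk5 with Klk7 gives 0.90 and 0.89, and Klk5 with Klk14 gives -0.05 and 0.32.

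**Figure D5:**
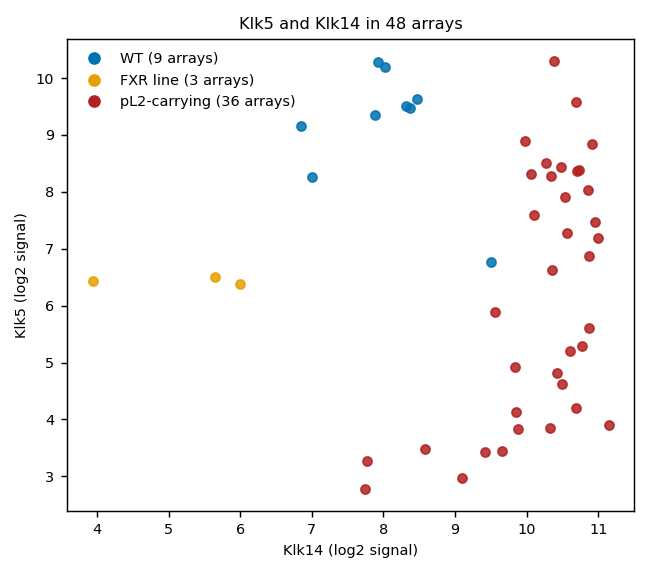
Log2 signal of Klk14 (x axis) and Klk5 (y axis) in each of 48 arrays, coloured by class. WT arrays lie at the upper left apart from 1, FXR arrays at the far left at middle height (6.38 to 6.50 in Klk5), and pL2-carrying arrays mostly at the right, from 2.77 to 10.30 in Klk5.

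Over deviations from group means, the suprabasal squamous mean had r = 0.64 with Klk5, 0.78 with Klk7, 0.86 with Klk6, 0.90 with Klk8, 0.85 with Klk10, 0.91 with Klk11, 0.73 with Klk13 and 0.85 with Klk14. With the neutrophil mean, Klk5 had r = -0.59 and Klk7 -0.48, whereas Klk13 had 0.39 and Klk10 0.24. Within pL2-carrying arrays the neutrophil correlation was -0.66 for Klk5 and 0.00 for Klk13.

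The genes most like the mean of the 8 over 48 arrays, by Pearson correlation among 15234 others, were Abca12 (r = 0.976), a lipid transporter of keratinocytes, Pnpla1 (0.974), a lipase of the epidermal barrier, and Bpifc (0.969). Next came Fads2b, Alox12b, a lipoxygenase of the epidermal barrier, Ppl, which encodes periplakin of the cornified envelope, Teddm3, Tmem40, Lipk and Gltp (0.961 to 0.953). Single members had different nearest genes. For Klk5 they were 2310050C09Rik (0.968), Nmu (neuromedin U, 0.965) and Slc46a2 (0.963), and for Klk7 they were Asprv1, a skin aspartic protease (0.965), Il1f5 (0.958) and Cpa4 (0.949). Klk6 was closest to Il1f6 (0.877), Tmprss11a (0.874) and Cdsn (0.869).

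Klk8 was closest to Wfdc5 (0.957), to its neighbour in the cluster Klk9 (0.955) and to Bpifc (0.953). Klk10 was closest to Grhl3, a grainyhead-like transcription factor (0.967), Gjb2, a connexin (0.967), and Tfap2a (0.965), and Klk11 to Grhl3 (0.974), Vsig10l (0.970) and Trim29 (0.957). Klk13 was closest to Tgm1, the transglutaminase of the cornified envelope (0.967), Il1rn, the interleukin-1 receptor antagonist (0.951), and Crabp2 (0.948). Il1rn also headed the list of Klk14 (0.940), before Cldn17 (0.925) and Pglyrp3 (0.918).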

How the data were processed

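Total RNA from whole junction tissue was hybridised to 48 Affymetrix arrays, 1 per sample. The deposited values are on a log2 scale, and the submitters' processing notes name RMA and Affymetrix Expression Console (no version given). The genome build and probe locations are not given in the sources used here. RMA aligns the distributions of all arrays, so levels are relative to the rest of each array, and very low or very bright signals are compressed.

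Of 34390 probe set entries, 23521 carried 1 gene symbol in the platform annotation, and these covered 22180 symbols. For each symbol the brightest was kept, and 15242 genes passed the filter (signal exceeding the median of the array it was read on, in 3 or more arrays). All arrays entered 1 limma fit (limma 3.58.1, R 4.3.3) with a mean per group, 24 comparisons, two-sided tests and Benjamini-Hochberg adjustment over all tested genes of a comparison, called at 0.05. No 2 arrays held identical values. The fit was tested on simulated data. Correlations used pandas 2.3.3 (Python 3.11.15). Promoter sequences are from RefSeq (GRCm38.p6).

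The 8 genes and all lists were chosen with earlier results of these data known. Named besides the 8 genes were the called members of each list, at most 4 by size of the difference, and the genes with the highest correlation. Other list members with values (Spink5, Klk9, Cdsn, Dsg1a, Dsg1b, Dsc1 and Flg where not called) are named for their role in kallikrein biology. Krt13, Krt4, Krt1, Krt10 and Lor are named as suprabasal markers that were not called at MRI. Alternatives changed the filter, the probe set summary, the arrays fitted, weights, moderation, normalisation and covariates, and left out single arrays or the 10 arrays with hepatocyte or intestinal signal.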

Additional observations from a re-analysis of the deposited data

Results flagged for a closer look

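Klk14 differed between HFD and chow in opposite directions in pL2 and WT mice at Freising. All 3 pL2 arrays on HFD (9.97, 10.49 and 10.27) lay below the chow mean, a log2 difference of -0.32 ± 0.66, and all 3 WT arrays on HFD (8.48, 8.32 and 7.92) lay above theirs, a difference of 0.65 ± 0.66. The difference between the differences was -0.97 ± 0.93 (limma interaction test, adjusted p = 0.999) and was not called.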

How the results depend on the processing

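Of 312 counts of called members under alternatives other than leaving out single arrays, 289 stayed within 1.5 times the reported count and 23 did not. Of 260 single differences that had been called, 226 kept their direction and call, 31 lost the call and 3 changed sign. When the 10 arrays with hepatocyte or intestinal signal were dropped, the members called between pL2 and WT went from 5 to 3 over both facilities (Klk5 -2.23, adjusted p = 0.0776; Klk10 0.79, 0.0527) and from 4 to 0 at MRI, where calls over all genes went from 3512 to 2042. With array weights they went from 1 to 2 at Freising on chow and from 0 to 4 on HFD, where calls over all genes went from 250 to 2146 and from 177 to 1706. Array weights also gave 3 for the interaction of FXR and pL2 (all genes from 21 to 921), 1 for pL2_IL8 at 12 months against pL2 (278 to 2482), 2 for 12 against 9 months (0 to 291), 2 each for Dclk Notch1fl_fl (0 to 1635) and Notch2fl_fl (39 to 2829) against pL2, and 2 for the Dclk against the Lgr5 lines (144 to 497). The title suffix as a covariate gave 0 at Freising on chow, and fitting the compared groups alone gave 1 on HFD.

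With the squamous covariate, the members called between FXR and WT went from 4 to 0, those between the WT groups of the facilities from 0 to 1, and those between Dclk and Lgr5 lines from 1 to 0. Klk8 (-0.16) and Klk11 (-0.10) between pL2_FXR and FXR, and Klk8 (0.49) between FXR and WT, changed sign. The skeletal muscle covariate gave 0, 1 and 3 for the same comparisons, and calls over all genes between FXR and WT fell from 323 to 7 and 45 under these covariates. The call of Klk5 between Dclk and Lgr5 lines also went to 0 without the filter, with cyclic loess, with the compared groups alone and with age as a covariate. The cause of these changes was not tested.

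Leaving out single arrays gave 3 to 5 members called for pL2 against WT over both facilities, 0 to 4 at MRI, 0 to 1 at Freising on chow, 5 to 5 for pL2_FXR against FXR, 2 to 3 for FXR against WT, 0 to 2 for the interaction of FXR and pL2, 0 to 3 for Dclk against Lgr5 lines, and 0 to 0 in the other 17 comparisons. No paired analysis was possible because the labels give no replicate numbers, and the numbers used here follow accession order. The number of arrays, 3 a group, limits the precision of each difference. Age, tamoxifen age and line cannot be told apart in the Notch comparisons, and no line has its own littermate control among the arrays used here.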
